A study of Homo sapiens with 3 samples.

Results

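Untreated NCI-H1650 cells, an established human lung adenocarcinoma line, were read on 1 of the 3 Affymetrix arrays of a study of colossolactone H, a triterpenoid of fungal origin. All probe sets naming a single gene were ranked by their signal on the array titled Control, which gave values for 19775 genes. The other 2 arrays held the same line after exposure to 40 µM colossolactone H for 12 h and for 24 h, and are read beside the control to show how far the untreated values carried over. They also enter the floor and the choice of each gene's probe set, both of which were taken over the 3 arrays. The labels name neither a vehicle for the control nor the time at which it was collected. Cells grew in RPMI medium with 10% serum, and cRNA was made from 6 µg of Trizol-extracted RNA. Each group was 1 array of 1 line, so no value has a replicate error, no test between groups was possible, and the number of arrays limits the precision throughout.

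Lung adenocarcinoma arises from the glandular and alveolar epithelium of the lung. Its cells usually keep simple keratins and E-cadherin, and many tumours also keep NKX2-1, the transcription factor that directs lung identity and switches on surfactant genes. NCI-H1650 is widely used because it carries an activating in-frame deletion in EGFR, the receptor for epidermal growth factor, which drives growth through the RAS-MAP kinase and phosphoinositide 3-kinase pathways.

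Signals were sorted into 4 classes. The floor was set at 61.4, the median of all values of the 3 arrays, and a gene was called above the floor when its signal exceeded it. On the untreated array 11849 of 19775 genes were above the floor, which is 59.9% of genes and the background for every list below, and 7926 genes (40.1%) were at the floor. This background is not matched for the number of probe sets from which a gene's value was taken. Of 10523 genes with 2 or more single-gene probe sets 7825 were above the floor, a higher share. Lists of genes with many probe sets may therefore exceed the background for that reason, which was not tested. The brightest 5% of genes, 989 genes with signals from 6001 to 33664, formed the bright class. A further 4935 genes between 871 and 6001 were called intermediate and 5925 genes between 61.5 and 871 were called dim. The bright class held 44.4% of the summed signal of all genes, and the 100 brightest genes alone held 9.34%. A signal depends on the sequence of its probes as well as on the amount of RNA, so ranks order signals and not transcript numbers.

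**Figure D1:**
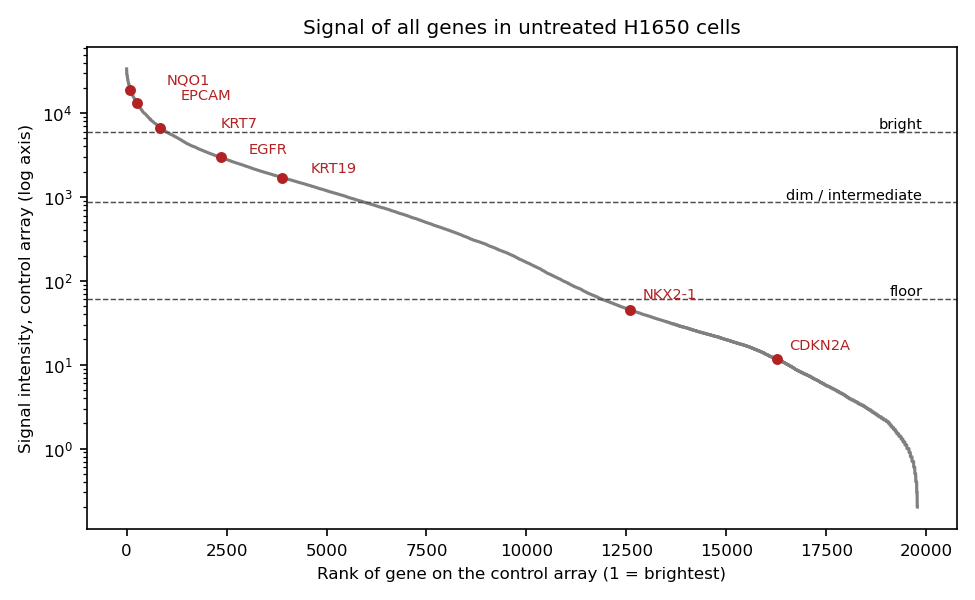
Signal of each of 19775 genes on the untreated control array (y axis, log scale, array signal units) against its rank (x axis, 1 is the brightest). Dashed lines mark the floor of 61.4 and the lower edges of the intermediate (871) and bright (6001) classes, and red points mark NQO1, EPCAM, KRT7, EGFR and KRT19 above the floor and NKX2-1 and CDKN2A below it.

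Genes restricted to other tissues lay almost wholly at the floor. Of 82 olfactory receptor genes 1 was above it, OR1I1 with a signal of 80.6. Of 36 genes restricted to tissues other than lung, 1 was above it, SLC17A7, a vesicular glutamate transporter of neurons, with 63.3. Albumin (ALB) gave 13.8, the glial filament gene GFAP 4.5, the myelin gene MOG 34.5 and the neuronal glutamate receptor gene GRIN1 12.1. None of 33 keratin-associated protein genes of hair or 16 GABA-A receptor subunit genes was above the floor on this array. A signal at the floor is a bound on what the array could resolve and does not show that a transcript was missing.

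The reference promoters of the 4 classes differed in their base composition. Promoters from RefSeq (GRCh38.p14), each running from 250 bases before to 50 bases after the annotated start, were matched by gene identifier to 15381 genes of the array. A promoter was called CpG-rich when its observed over expected CpG ratio was 0.6 or more. Among bright genes 750 of 830 promoters (90.4%, exact 95% interval 88.1 to 92.3) were CpG-rich, among intermediate genes 89.4%, among dim genes 77.1% and among genes at the floor 2129 of 5687 (37.4%, 36.2 to 38.7). The share over all matched genes was 66.5%. These intervals cover counting error only. Median CpG ratios were 0.88, 0.87, 0.81 and 0.40 in the same order.

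The letters TATAAA, searched on the strand of the gene between 45 and 16 bases before the start, ran the other way at the low end. They stood in 5.50% of promoters of genes at the floor, 1.68% of dim, 1.26% of intermediate and 2.53% of bright genes, against 3.02% of all matched genes. Among the 36 genes of other tissues, 25 had a promoter in the table, of which 9 (36%) held these letters and 1 was CpG-rich. Of 51 cytosolic ribosomal protein promoters 50 were CpG-rich and 3 held TATAAA. A match of letters is a description of the reference and not a site shown to be used.

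**Figure D2:**
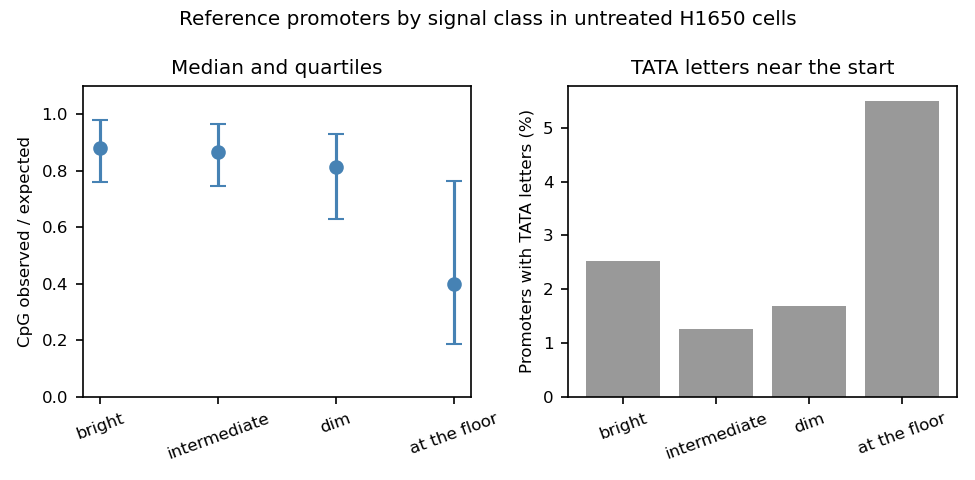
Left, the observed over expected CpG ratio of reference promoters (y axis, no unit) by signal class on the untreated array, as medians (points) with the lower and upper quartiles (bars). Right, the percentage of promoters with TATAAA between 45 and 16 bases before the start (y axis). Median CpG ratios fall from 0.88 in bright genes to 0.40 in genes at the floor, and TATAAA is found in 5.50% of promoters of genes at the floor against 2.53% or less in the other classes.

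The promoters printed here were chosen to show the range, each 5′ to 3′ on the strand of its gene. The first 3 are shown with every CpG in capitals. DSP (chr6:7541421-7541720, plus strand) belongs to a bright junction gene, NKX2-1 (chr14:36520183-36520482, minus strand) and CDKN2A (chr9:21995275-21995574, minus strand) to genes at the floor, so that CpG-rich letters stood in front of both kinds. Their CpG ratios were 0.83, 0.61 and 1.13.
DSP: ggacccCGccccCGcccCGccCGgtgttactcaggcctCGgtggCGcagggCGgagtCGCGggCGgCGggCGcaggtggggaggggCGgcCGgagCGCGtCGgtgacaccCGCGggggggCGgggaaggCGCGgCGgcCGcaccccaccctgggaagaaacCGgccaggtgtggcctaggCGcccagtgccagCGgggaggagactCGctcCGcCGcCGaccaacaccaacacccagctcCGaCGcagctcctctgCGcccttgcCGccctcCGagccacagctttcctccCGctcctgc
NKX2-1: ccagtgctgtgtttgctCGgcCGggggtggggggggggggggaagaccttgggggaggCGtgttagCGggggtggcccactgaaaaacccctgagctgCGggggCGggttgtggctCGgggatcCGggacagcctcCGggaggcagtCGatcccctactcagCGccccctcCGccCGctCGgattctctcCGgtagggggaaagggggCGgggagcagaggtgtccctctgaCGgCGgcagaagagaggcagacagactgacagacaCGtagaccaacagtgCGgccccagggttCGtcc
CDKN2A: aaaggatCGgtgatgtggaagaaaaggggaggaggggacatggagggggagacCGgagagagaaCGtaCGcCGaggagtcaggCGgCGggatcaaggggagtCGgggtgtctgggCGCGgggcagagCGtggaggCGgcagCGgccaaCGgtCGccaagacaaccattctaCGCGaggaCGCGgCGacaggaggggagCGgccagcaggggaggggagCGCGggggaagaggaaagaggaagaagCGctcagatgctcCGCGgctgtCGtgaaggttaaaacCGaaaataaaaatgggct
The next pair have TATAAA in capitals, which starts 29 bases before the start in both. KRT10 (chr17:40822565-40822864, minus strand) is a bright keratin gene with a single CpG in this window and a CpG ratio of 0.096, and G6PC1 (chr17:42900549-42900848, plus strand), the glucose-6-phosphatase gene of liver, was at the floor with a ratio of 0.19.
KRT10: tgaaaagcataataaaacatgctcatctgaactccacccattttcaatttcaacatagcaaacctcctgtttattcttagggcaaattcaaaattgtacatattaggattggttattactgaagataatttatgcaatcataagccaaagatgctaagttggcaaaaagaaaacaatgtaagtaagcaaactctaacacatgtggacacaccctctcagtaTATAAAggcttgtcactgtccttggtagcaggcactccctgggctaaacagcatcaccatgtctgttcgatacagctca
G6PC1: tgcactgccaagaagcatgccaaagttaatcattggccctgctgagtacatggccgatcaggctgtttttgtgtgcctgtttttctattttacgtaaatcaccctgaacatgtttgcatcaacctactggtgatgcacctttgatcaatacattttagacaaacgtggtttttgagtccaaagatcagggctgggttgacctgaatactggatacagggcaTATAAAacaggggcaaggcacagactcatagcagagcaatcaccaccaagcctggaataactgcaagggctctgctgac
TXNRD1 (chr12:104215529-104215828, plus strand), the bright thioredoxin reductase gene, is shown with the core of the antioxidant response element, TGACNNNGC on either strand, in capitals. It holds 1 match on each strand.
TXNRD1: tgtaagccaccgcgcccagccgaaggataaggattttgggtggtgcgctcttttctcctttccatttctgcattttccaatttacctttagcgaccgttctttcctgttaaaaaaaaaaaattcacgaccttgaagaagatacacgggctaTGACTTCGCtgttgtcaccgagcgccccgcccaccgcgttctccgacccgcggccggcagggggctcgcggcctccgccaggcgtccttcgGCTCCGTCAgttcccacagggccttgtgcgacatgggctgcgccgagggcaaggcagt
KRT10 shows that a signal in the bright class also occurred behind a promoter poor in CpG.

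The 10 genes with the highest signals were the mitochondrial genes COX2 (33664), ND4 (30783) and COX1 (29038), the ribosomal protein genes RPS23 (30375), RPS16 (30289) and RPL37A (29302), the elongation factor gene EEF1A1 (29586), the ATP synthase gene ATP5F1E (29585), the actin-binding TMSB4X (29211) and the prolyl isomerase gene PPIA (29092). They serve respiration, translation and the cytoskeleton. Outside ribosomal proteins and elongation factors, the next were tubulin TUBA1B (28714), beta-2-microglobulin B2M (27942), the ferritin heavy chain copy FTH1P5 (27606), integrin beta-1 ITGB1 (27272), GAPDH (27251), ACTB (27052), TPT1 (26540.1), the poly(A)-binding copy PABPC3 (26335) and the chaperone HSP90AA1 (26112). FTH1P5 and PABPC3 are near-identical copies of other genes, so their signals cannot be assigned to them with certainty. TUBA1B, EEF1A1 and the ribosomal protein genes also have close relatives whose RNA the probes may bind.

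Several families of basic cell machinery lay almost wholly above the floor. These families were grouped by symbol after the values were seen. Of 59 cytosolic ribosomal protein genes 57 were above the floor and 51 were bright, against 5% of all genes. All 75 mitochondrial ribosomal protein genes were above the floor on this array, with a median of 2306 and MRPS15 at the top with 10728. All 43 NDUF subunit genes of respiratory complex I were above it, led by NDUFAB1 with 16863, and 7 of 8 CCT chaperonin genes were bright, led by CCT5 with 16029. Among 42 proteasome PSM genes 41 were above the floor and 17 bright, with PSMB1 at 18285. All 10 SRSF splicing factor genes were above it and 4 were bright.

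The 6 markers named for this line were read first, as a check of its label. NQO1, a quinone reductase, gave 19116 untreated, 20226 after 12 h and 21449 after 24 h, which placed it at rank 93 on the untreated array. EPCAM, an adhesion protein of epithelia, gave 13033 untreated, 13754 after 12 h and 13538 after 24 h and stood at rank 258. KRT7, a keratin of lung and other glandular epithelia, gave 6665 untreated, 5855 after 12 h and 5632 after 24 h and stood at rank 847. These 3 genes were in the bright class on the control, and KRT7 was the one among them below the top 5% of genes on the treated arrays.

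EGFR gave 2973 untreated, 2387 after 12 h and 2695 after 24 h, at rank 2353 and in the intermediate class on every array. KRT19, another simple keratin, gave 1703 untreated, 1171 after 12 h and 1119.8 after 24 h at rank 3892. NKX2-1 gave 44.8 untreated, 26 after 12 h and 11.3 after 24 h, at or under the floor on all 3 arrays and for both of its probe sets. Thus 5 of the 6 markers were above the floor and the lung identity factor was not, so on that gene the marker check was not met.

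Probe sets of these genes did not agree in size. NQO1 had 3, with control signals of 9022, 17805 and 19116, all bright. EGFR had 9, of which 5 were above the floor at 2973, 1501, 1176, 144 and 68.7. The other 3 probe sets of KRT7 gave 91.7, 76.9 and 22.7, and the second probe set of KRT19 gave 11.4. Across 7825 genes above the floor with 2 or more probe sets, all sets were above it in 3730 (47.7%), and the set used exceeded the dimmest 14.3-fold at the median. A gene's value is that of the probe set with the highest mean over the 3 arrays, which need not be its brightest on the control, and the class of a gene with divergent sets depends on that choice.

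Keratins form the intermediate filaments of epithelial cells, in pairs of types that differ between glandular and layered epithelia. Of 7 simple keratin genes 5 were above the floor and 3 bright. KRT18 gave 23650.3 untreated, 21678 after 12 h and 23142 after 24 h. KRT8, its usual partner, gave 6983 untreated, 6663 after 12 h and 6185 after 24 h. KRT80 gave 1631 in the control, while KRT20 of the gut (9.5) and KRT23 (2.7) were at the floor on all 3 arrays.

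Junction proteins bind epithelial cells to each other, and 26 of 28 junction and epithelial regulator genes were above the floor, with 7 bright and a median of 2249. CDH1, which encodes E-cadherin, gave 20421 untreated, 20218 after 12 h and 20492 after 24 h. DSP, which anchors keratin filaments at desmosomes and whose CpG-rich promoter is printed above, gave 17730.2 untreated, 15931 after 12 h and 15728 after 24 h. DSG2, a desmosomal cadherin, gave 12406 in the control, and CDH3, which encodes P-cadherin, gave 8088. The members at the floor were CLDN3, a tight-junction claudin (6.2), and EHF, an epithelial transcription factor (24.9). Chosen after their values were seen, SPINT2 (12181) and TJP1 (9452) were also bright, and the epithelial splicing regulator ESRP1 gave 4338.

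Markers of squamous and basal epithelium were mixed. Of 17 such genes 10 (58.8%) were above the floor, close to the background, and 1, KRT10, was bright. KRT10, a keratin of differentiated skin layers, gave 8382 untreated, 10279 after 12 h and 10223 after 24 h. IVL, the cornified envelope protein involucrin, gave 1747 in the control, the desmosomal cadherin DSG3 1475 and S100A2 1116. Those at the floor with the most probe sets were low on all 3 arrays: SOX2 gave 26.1, KRT13 1.6, KRT4 4.8 and KRT1 9.3. Chosen after their values were seen, KRT5 (42.5) and KRT14 (22.8), the keratin pair of basal cells, were at the floor, while KRT16 (474) and KRT15 (347) were dim.

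Genes of the mesenchymal programme were read beside the epithelial ones. Of 12 such genes 9 were above the floor, with a median of 182. SPARC, a matrix-binding secreted protein, was bright with 11235 untreated, 12270.3 after 12 h and 11862 after 24 h. AXL, a receptor kinase, gave 2902 in the control, fibronectin FN1 2454 and vimentin VIM 1442. The regulators were near or at the floor: ZEB1, a repressor of E-cadherin, gave 54 untreated, 57 after 12 h and 102 after 24 h, which crossed the floor at 24 h, and ZEB2 (5.0) and SNAI2 (30.5) stayed at it on all 3 arrays. Chosen after its value was seen, CDH2, which encodes N-cadherin, was dim with 178.

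Lung lineage genes of the alveolar type 2 cell were above the floor about as often as all genes. These cells make surfactant, and of 13 of their genes 8 (61.5%) were above the floor, against 59.9% of all genes. None was bright, against 5% of all genes, and the median was 84.3. The brightest was CTSH, a cathepsin that trims surfactant protein, with 3088 untreated, 3057 after 12 h and 2901 after 24 h. LPCAT1, a lipid enzyme of surfactant synthesis, gave 2915 untreated, 3716 after 12 h and 3870.4 after 24 h. The ETS transcription factor ETV5 gave 844 untreated, 1637 after 12 h and 1662 after 24 h, and both it and LPCAT1 were lowest on the control. The lysosomal LAMP3 gave 588 in the control. Those at the floor on the control were NKX2-1, the aspartic protease NAPSA (49.1), the phosphate carrier SLC34A2 (24), FOXA1 (16.9) and FOXA2 (4.5). The surfactant genes SFTPB, SFTPC and SFTPD, named after their values were seen, were dim on every array. SFTPA1 and SFTPA2, also on the list, had no single-gene value. SFTPB gave 236 untreated, 184 after 12 h and 186 after 24 h. SFTPC gave 84.3 untreated, 161 after 12 h and 132 after 24 h. SFTPD gave 190.3 untreated, 231 after 12 h and 174 after 24 h. SFTPB was highest on the control, and SFTPC and SFTPD at 12 h. ABCA3, the lipid pump of lamellar bodies and also chosen after the fact, gave 70.1, close to the floor.

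**Figure D3:**
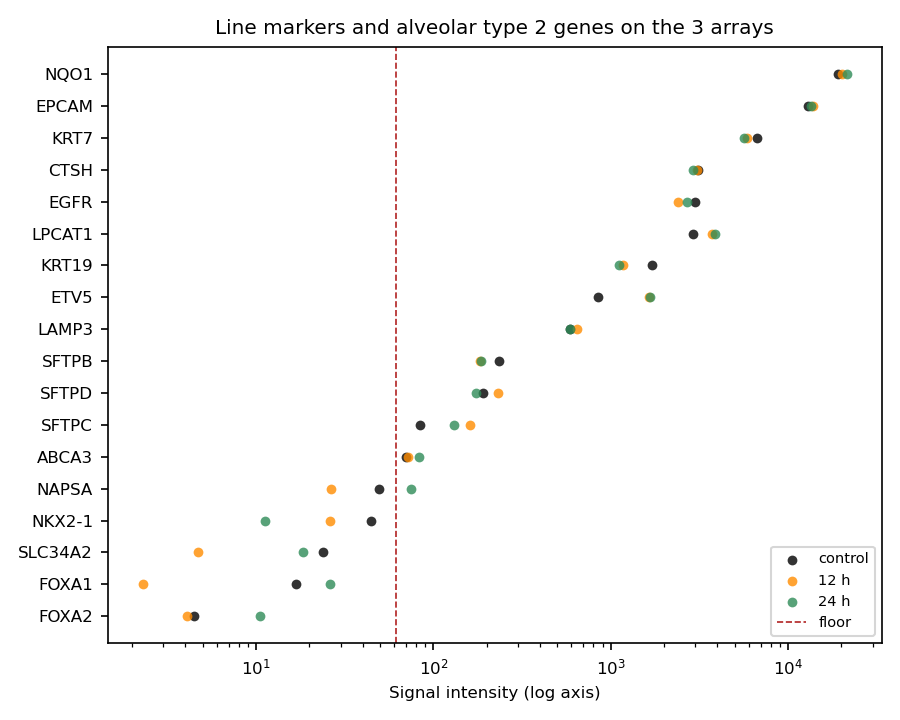
Signal (x axis, log scale, array signal units) of the line markers and alveolar type 2 genes on the control, 12 h and 24 h arrays, 1 point per array, with the floor of 61.4 as a dashed line. NKX2-1, SLC34A2, FOXA1 and FOXA2 lie under the floor on all 3 arrays, while NQO1, EPCAM and KRT7 lie high on each.

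Alveolar type 1 genes split. CAV1, the coat protein of caveolae, gave 15016 untreated, 12361 after 12 h and 10491 after 24 h. CAV2, its partner, gave 9398 untreated, 9328 after 12 h and 8199.5 after 24 h. Both were bright on every array, and EMP2, a membrane protein, gave 3171 in the control. The 9 genes of the list gave 4 above the floor, with CLIC5 the fourth at 123 untreated, 20.6 after 12 h and 27.3 after 24 h, above the floor only on the control. AGER (44.3), HOPX (6.1), AQP5 (3.8), PDPN (37.2) and RTKN2 (52.5), which also mark the flat gas-exchange cell, were at the floor on the control. Caveolins are also made by many cell types outside the alveolus.

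Airway cell types left few traces. Of 7 club cell genes 1 was above the floor, PIGR, the carrier of secreted antibodies, with 124, and SCGB1A1, the defining secretoglobin, gave 22.9. Among 9 ciliated cell genes 4 were above it, CAPS (1796), DNAI1 (202), DNAH5 (148) and TP73 (98.6), while FOXJ1, the master regulator of motile cilia, gave 3.3. Of 14 mucin and mucous cell genes 3 were above it, MUC1 (1644), SPDEF (106) and AGR2 (95.8). The other probe sets of SPDEF (51.4, 40.1, 22.6 and 9) and of AGR2 (10.5) were at the floor on the control. The gel-forming mucin MUC5AC was at the floor with 51.9, and MUC4 (36.8), MUC13 (21.4) and MUC20 (4.2) were too. None of 10 gut and liver lineage genes was above the floor, among them CDX2 (22.7), VIL1 (31.3), CLDN18 (26) and FABP1 (1.2).

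Some lung tumours are neuroendocrine. Of 12 such genes 4 were above the floor, all dim. DLL3, a Notch ligand, gave 244 untreated, 327 after 12 h and 319.9 after 24 h. Only 1 of its 4 probe sets was above the floor on the control, the others giving 5.9, 11.2 and 12.5. UCHL1, a ubiquitin hydrolase, gave 243 untreated, 341 after 12 h and 415 after 24 h. The secretory granule proteins CHGB and CHGA gave 199 and 107 in the control. The regulator INSM1 (12.8) and the surface marker NCAM1 (16.9) were at the floor, as were CALCA (27.1) and ENO2 (5.9). The list's median of 26.2 was under the floor.

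Markers of leukocytes, fibroblasts and endothelium were at the floor or dim, apart from COL3A1, which was intermediate. Of 12 leukocyte markers 3 were above the floor, CSF1R (198), CD79A (143) and ITGAM (73.7), and their summed signal over the 12 genes was 578, 553 and 606 on the control, 12 h and 24 h arrays. PTPRC, the pan-leukocyte marker CD45, gave 23.6, and CD14 (51), MS4A1 (19.4) and LYZ (12.1) were at the floor. Fibroblast and endothelial markers came to 6 of 15 above it, led by the collagen chain COL3A1 (877), COL1A1 (729.8), the protease FAP (471) and PECAM1 (137). Named because they were at the floor on all 3 arrays, PDGFRA (16), DCN (43.7), THY1 (22.3) and COL1A2 (32) mark the same cells, and the list's summed signal was 2605, 2225 and 1820 on the 3 arrays. In bulk RNA a few cells of a type and a low level in all cells cannot be told apart.

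**Figure D4:**
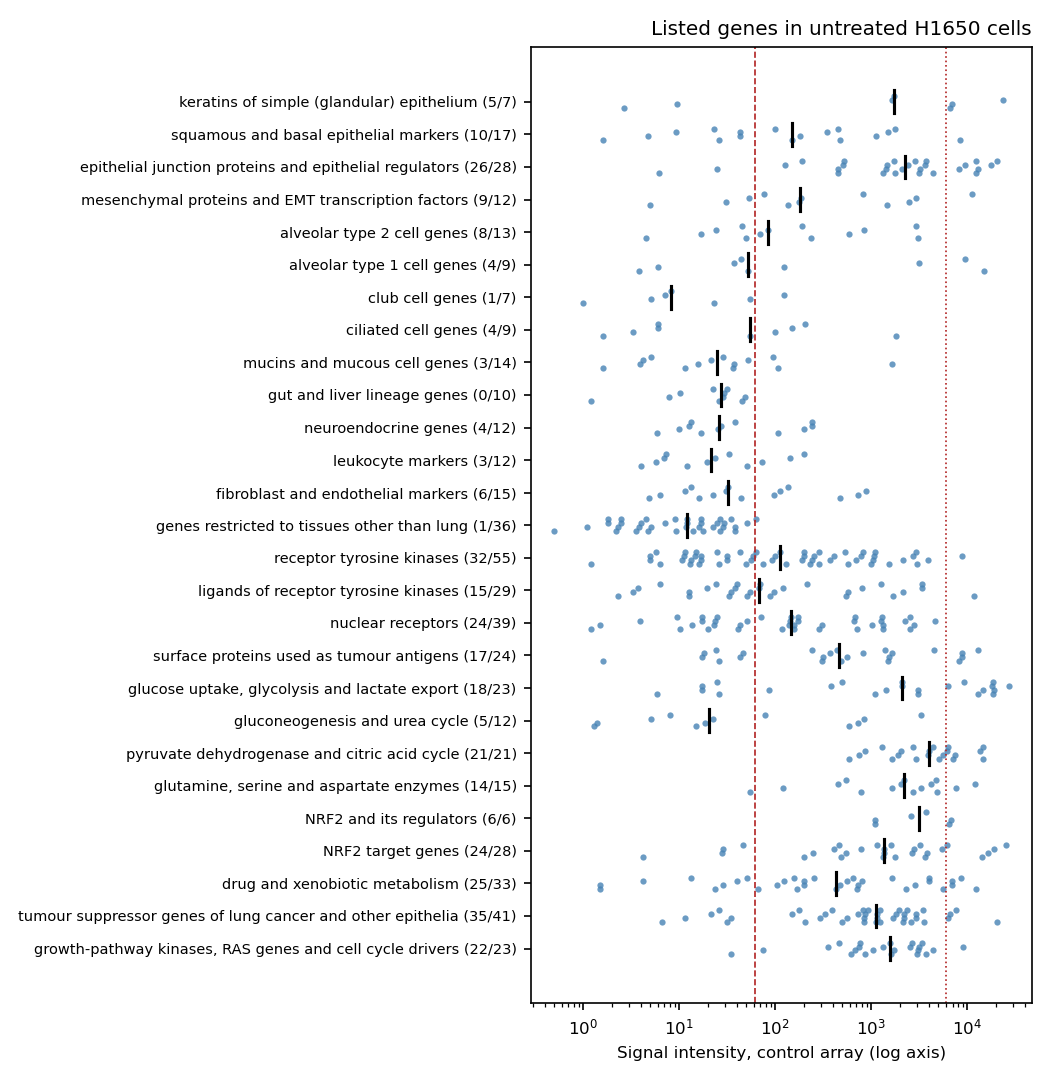
Control signal (x axis, log scale, array signal units) of the members of 27 gene lists on the untreated array, 1 point per gene, with each list's median as a black bar and its count above the floor over its genes on the array in brackets. The dashed line is the floor of 61.4 and the dotted line the lower edge of the bright class at 6001. All points of the citric acid cycle lie above the floor and all gut and liver points below it.

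Receptor tyrosine kinases carry growth signals across the membrane, and 32 of 55 were above the floor (58.2%), close to the background, with 1 bright. MET, the receptor for hepatocyte growth factor, was that gene, with 8806 untreated, 6511 after 12 h and 6495 after 24 h. RYK, a Wnt co-receptor, gave 3892 untreated, 3669.8 after 12 h and 3743 after 24 h. EGFR and AXL followed with the values given above, and none of the 4 left the upper classes on any array. Among the relatives of EGFR, ERBB2 gave 1535 untreated, 1437 after 12 h and 1307 after 24 h. ERBB3 gave 1055 untreated, 1125 after 12 h and 1089 after 24 h. ERBB2 and ERBB3 were thus intermediate on every array, while ERBB4 was at the floor on each with 6.4 untreated, 15.7 after 12 h and 40.7 after 24 h. The ERBB family pairs receptors with each other, and ERBB3 signals only through such partners. Receptors at the floor with the most probe sets included NTRK2 (31.5), NTRK3 (58.1), EPHA4 (16.9) and EPHA7 (10.7).

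Chosen after their values were seen, the oncogenic fusion partners ALK (42.7) and ROS1 (14.9) and the stem-cell factor receptor KIT (5.0) were at the floor. RET was dim on the control with 75.3 untreated, 63.6 after 12 h and 9.2 after 24 h, under the floor at 24 h. FGFR2 gave 2693 untreated, 1409.6 after 12 h and 1488 after 24 h, highest on the control. IGF1R gave 994, INSR 413, FGFR1 536 and EPHA2 1094 in the control.

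Ligands of these receptors were read beside them. Of 29 ligand genes 15 were above the floor, and 1 was bright, PDGFC, a platelet-derived growth factor, with 11836 untreated, 10934 after 12 h and 9719.7 after 24 h. TGFA, a ligand of EGFR, gave 3394 untreated, 3092 after 12 h and 2969 after 24 h. VEGFA, which acts on blood vessels, gave 3381 untreated, 5004 after 12 h and 5283 after 24 h, lowest on the control. FGF2, a fibroblast growth factor, gave 2131 untreated, 1631 after 12 h and 1309 after 24 h, highest on the control. HGF, the ligand of MET, gave 34.7, IGF1 39.6, FGF18 54.8 and ANGPT2 6.3, all at the floor. Both receptors for the PDGF chains were at the floor too, PDGFRA with 16 and PDGFRB, named after its value was seen, with 11.6. Other EGFR ligands named after the fact were HBEGF (546), EGF (68.2) and EREG (50.7), of which EREG was at the floor.

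Nuclear receptors are transcription factors switched by steroids, vitamins and lipids, and 24 of 39 were above the floor with none bright. NR3C1, the glucocorticoid receptor, gave 4640.3 untreated, 4535 after 12 h and 4135 after 24 h. The thyroid hormone receptor THRB gave 2769 in the control, the orphan receptor NR2C2 2553 and the clock repressor NR1D2 2528. RARB, a retinoic acid receptor often silenced in lung cancer, was at the floor with 41.1, as were ESR2 (43.5), ESRRB (17.2) and RORB (1.2). Named after their values were seen, PPARG gave 1265, VDR 1325 and the progesterone receptor PGR 9.6, the last at the floor.

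G protein-coupled receptors were grouped by family after the values were seen, and most were at the floor. Above it were 2 of 16 chemokine receptors, CCR2 (684) and CCR10 (79.6), 2 of 20 serotonin and dopamine receptors, HTR4 (157) and DRD2 (84), 1 of 14 adrenergic and muscarinic receptors, ADRB1 (452), and 1 of 8 prostanoid receptors, PTGER1 (149). By contrast 7 of 10 lysophospholipid receptors were above it, led by S1PR3 (1381) and LPAR1 (1151), which bind lipids carried in serum. Of 10 frizzled receptors for Wnt proteins 9 were above it, led by FZD6 (5402) and FZD2 (2782). Adhesion receptors gave 11 of 26, with ADGRG1 at 5414.

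Of 24 surface proteins used as tumour antigens 17 (70.8%) were above the floor, against 59.9% of all genes, and 4 were bright. These were EPCAM, CD44, a hyaluronan receptor (8830.2 untreated, 7901 after 12 h and 7416 after 24 h), MET and CDH3. Of 13 probe sets for CD44, 11 were above the floor. CEACAM5 (46.5), CEACAM6 (17.5), CLDN6 (18.3) and CLDN18 (26), targets in other carcinomas, were at the floor on all 3 arrays. Chosen after their values were seen, the folate receptor FOLR1 gave 4497 untreated, 4499.9 after 12 h and 4029.5 after 24 h, CD276 1489 and CD274, which encodes PD-L1, 316. MSLN (376) was dim, and NECTIN4 (43) was at the floor.

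Integrins, which bind cells to the matrix, were grouped after the values were seen. Of 25 subunits 15 (60%) were above the floor, as were 59.9% of all genes, and 4 were bright, ITGB1 (27272), ITGAV (13433), ITGA6 (10840.1) and ITGB8 (10257 untreated, 6898 after 12 h and 6939 after 24 h). ITGB8, which with ITGAV activates latent TGF-beta, was in the bright class on all 3 arrays, highest on the control. LAMB1 (8657) was the 1 bright laminin chain of 10, and none of 43 collagen chains was bright, COL5A1 coming first with 4549. Of 20 claudins 9 were above the floor, led by CLDN1 (3589) and CLDN7 (2421).

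Glycolysis, which turns glucose into pyruvate and lactate, had 18 of 23 genes above the floor and 9 bright, with a median of 2094. GAPDH came first, and ENO1, the housekeeping enolase, gave 18941 untreated, 20056 after 12 h and 21213 after 24 h. Of the chains of lactate dehydrogenase, LDHB gave 18600.1 untreated, 18171 after 12 h and 18748 after 24 h. LDHA gave 18385 untreated, 17617 after 12 h and 17453 after 24 h, and both were bright on every array. The isoforms of other tissues were low: ENO2 of neurons gave 5.9, ALDOC of brain 24.5 untreated, 83.1 after 12 h and 64.4 after 24 h, PGAM2 of muscle 17.2, PKLR of liver 26.2 and LDHC of testis 17.1. ALDOC crossed the floor on both treated arrays and the other 4 stayed at it. Named after their values were seen, SLC2A1, the main glucose carrier of tumours, gave 2075, HK2 1094 and PKM 2094.

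Gluconeogenesis and the urea cycle, which run in full in liver, were partial, with 5 of 12 genes above the floor and a median of 20.7. ASS1, which joins citrulline and aspartate, gave 3312 untreated, 3857 after 12 h and 4232 after 24 h. ASL, the next enzyme of the cycle, gave 849 untreated, 1307 after 12 h and 1325 after 24 h. PCK2, the mitochondrial carboxykinase, gave 722 untreated, 1748 after 12 h and 1631 after 24 h. ARG2, the mitochondrial arginase, gave 587 untreated, 964 after 12 h and 1271 after 24 h. All 4 were lowest on the control. NAGS was near the floor with 77.4, while CPS1 (15.1), ARG1 (1.4), FBP1 (18.6) and G6PC1 (22.7), whose TATAAA promoter is printed above, were at it.

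All 21 genes of pyruvate dehydrogenase and the cycle were above the floor on each of the 3 arrays, with 7 bright and a median of 4015 on the control. MDH1, the cytosolic malate dehydrogenase, gave 14602 untreated, 15379 after 12 h and 15838 after 24 h. MDH2, its mitochondrial counterpart, gave 14419.5 untreated, 14304 after 12 h and 14676 after 24 h. IDH1, which makes NADPH in the cytosol, gave 13435 untreated, 17441 after 12 h and 18718 after 24 h, lowest on the control, and DLD gave 7403. Pyruvate carboxylase PC had the lowest signal of the list, 584.

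Enzymes of glutamine, serine and aspartate metabolism gave 14 of 15 above the floor. PSAT1, a serine synthesis enzyme, gave 11948 untreated, 21107 after 12 h and 19735 after 24 h. GLUL, glutamine synthetase, gave 7637 untreated, 6064 after 12 h and 5681 after 24 h, and both were bright on the control. ASNS, asparagine synthetase, gave 4826 untreated, 10238 after 12 h and 11073 after 24 h, and GOT2 4732. PSAT1 and ASNS were lowest on the control, GLUL highest. SHMT1, the cytosolic serine hydroxymethyltransferase, was at the floor with 54.1, while its mitochondrial counterpart SHMT2, named after its value was seen, gave 3270.4.

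NQO1 belongs to the targets of NRF2, a transcription factor that the adaptor KEAP1 and the scaffold CUL3 mark for destruction until electrophiles release it. All 6 genes of NRF2 and its regulators were above the floor. NFE2L2, which encodes NRF2, gave 6490.1 untreated, 7569.9 after 12 h and 7041 after 24 h. CUL3 gave 6678 untreated, 6449.8 after 12 h and 6607 after 24 h. KEAP1 gave 2597 untreated, 2789.6 after 12 h and 2905 after 24 h. NFE2L2 and CUL3 were bright on every array and KEAP1 was intermediate. NFE2L1, a relative of NRF2, gave 3678 in the control.

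Of 28 NRF2 target genes 24 were above the floor and 5 bright. FTL, the ferritin light chain, gave 25328 untreated, 28165 after 12 h and 29568 after 24 h. TXNRD1, whose promoter is printed above, gave 16288 untreated, 17281 after 12 h and 18456 after 24 h. TKT, transketolase of the pentose phosphate pathway, gave 14179 untreated, 15297 after 12 h and 15713 after 24 h. The fifth bright target, GCLM, which limits glutathione synthesis and was chosen after its value was seen, gave 6101 untreated, 9243 after 12 h and 8676 after 24 h, just inside the bright class on the control. NQO1, FTL, TXNRD1, TKT and GCLM were each lowest on the control.

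Targets at the floor were ALDH3A1 (4.2), GPX2 (27.9), ABCC2 (28.3) and OSGIN1 (46.7 untreated, 57.7 after 12 h and 76.1 after 24 h), of which OSGIN1 crossed the floor at 24 h. The aldo-keto reductases AKR1C1 (489), AKR1C2 (249.9), AKR1C3 (201) and AKR1B10 (463), chosen after their values were seen, were dim, and close relatives of AKR1C1 and AKR1C2 may bind the same probes. HMOX1, heme oxygenase, also chosen after the fact, gave 1146 untreated, 3656 after 12 h and 2768 after 24 h. Among 20 target promoters that were matched, 7 (35%) held TGACNNNGC on either strand, against 14.8% of all matched genes and 17.3% of bright ones. This share rests on few promoters and was not tested. Of the bright targets NQO1, FTL, TXNRD1 and TKT, only TXNRD1 held these letters in the window. Bright genes outside the target list, such as GAPDH and ITGB1, held them too.

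Drug-metabolising enzymes gave 25 of 33 above the floor and 4 bright. MGST1, a membrane glutathione transferase, gave 12388 untreated, 13997 after 12 h and 14872 after 24 h. CYP1B1, a P450 under control of the dioxin receptor, gave 8491 untreated, 9424 after 12 h and 8766 after 24 h. NNMT, which methylates nicotinamide, gave 6972 untreated, 9667 after 12 h and 10281 after 24 h, lowest on the control, and MGST3 gave 6872 there. CYP1B1 was the 1 bright member among 47 cytochrome P450 genes, of which 17 were above the floor. ALDH1A1, a stem-cell aldehyde dehydrogenase, was at the floor on all 3 arrays with 1.5, as were ALDH3A1, CYP2E1 (50.9) and CYP3A5 (13.2). Chosen after its value was seen, ALDH1A3 gave 3959.7 untreated, 2638 after 12 h and 2480.2 after 24 h, highest on the control.

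Tumour suppressor genes were mostly expressed at the RNA level, with 35 of 41 above the floor and a median of 1118. Apart from CDH1, the brightest was SMARCA4, the ATPase of the SWI/SNF remodeller, with 7562 untreated, 6393 after 12 h and 6328 after 24 h. TGFBR2, a receptor for TGF-beta, gave 6619.8 untreated, 4694 after 12 h and 4738 after 24 h. RBL2, a relative of RB1, gave 6213 untreated, 6582 after 12 h and 5941 after 24 h. SMARCA4 was bright on every array, whereas TGFBR2 left the top 5% on both treated arrays and RBL2 at 24 h. RB1, which blocks entry to S phase, gave 2332 untreated, 1983 after 12 h and 1754 after 24 h. STK11, the kinase LKB1, gave 293 untreated, 246 after 12 h and 201 after 24 h. RB1 and STK11 were each highest on the control. The suppressors at the floor on all 3 arrays were CDKN2B, NF1 (21.7), AXIN2 (25.9), FHIT (31.6) and SEMA3B, the last (34.4) named because the count was 5. The values of NF1 and FHIT rested on 1 single-gene probe set each, against 4 for AXIN2 and 2 for CDKN2B. Probe sets naming several genes were not used.

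CDKN2A, which encodes the cyclin kinase inhibitor p16, was at the floor with 3 of 3 probe sets on the control. The promoter printed above lies at the outermost start of the gene record. It need not be the start of the transcript that encodes p16. Its signal was 11.6 untreated, 36.2 after 12 h and 63.5 after 24 h, just over the floor at 24 h. The gene lies on chromosome 9, and the 8 array genes on either side were read in the order of GRCh38.p14. From CDKN2A-AS1 (2.9) through CDKN2A, CDKN2B-AS1 (2.7) and CDKN2B (6.6 untreated, 8.1 after 12 h and 15.7 after 24 h) to DMRTA1 (3.0), 5 consecutive genes were at the floor on the control. The run includes the gene on which it was centred, and 40.1% of all genes were at the floor. CDKN2A-AS1, CDKN2B-AS1 and DMRTA1 rested on 1 probe set each. MTAP, a purine salvage enzyme on the near side, gave 924 untreated, 850.2 after 12 h and 979 after 24 h. ELAVL2, an RNA-binding gene on the far side, gave 3125 untreated, 2210.1 after 12 h and 2231 after 24 h. MTAP was near the lower edge of the intermediate class, under it at 12 h, and ELAVL2 was intermediate on every array.

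Of these 16 neighbours 7 were above the floor, against 59.9% of all genes, and besides MTAP and ELAVL2 they were KLHL9 (3117), MIR31HG (600.2), TUSC1 (2148), CAAP1 (1899) and PLAA (2616). The neighbours at the floor outside that run were the interferon genes IFNA1 (18.9), IFNA2 (0.5), IFNA8 (12.5) and IFNE (49.1) and the noncoding LINC01241 (20.9). MTAP rested on 2 of 6 probe sets, at 924 and 65.1, the other 4 being at 15.9, 9.8, 2.2 and 1.4. CDKN2A-AS1 and CDKN2B-AS1 overlap the genes on the opposite strand. Expression values do not show whether DNA is present.

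**Figure D5:**
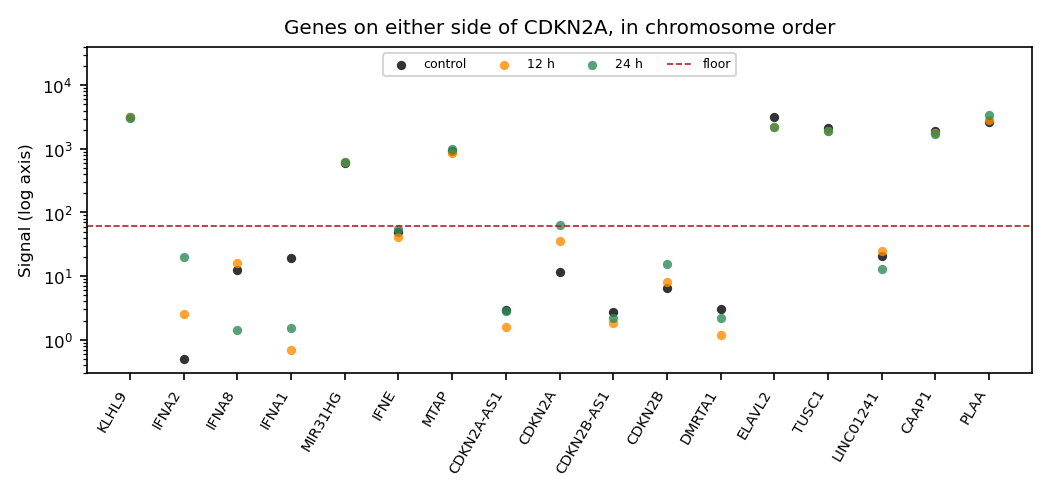
Signal on the control, 12 h and 24 h arrays (y axis, log scale, array signal units) of CDKN2A and the 8 array genes on either side of it (x axis, gene order on chromosome 9, not to scale), with the floor of 61.4 as a line. CDKN2A-AS1, CDKN2A, CDKN2B-AS1, CDKN2B and DMRTA1 lie at the floor on the control between MTAP at 924 and ELAVL2 at 3125.

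Growth-pathway genes were above the floor in 22 of 23 cases. YAP1, the effector of the Hippo pathway, was the 1 bright member with 8989 untreated, 8610.3 after 12 h and 8134 after 24 h. MCL1, a survival protein, gave 4428 untreated, 4037 after 12 h and 4617 after 24 h, PIK3CB, a catalytic subunit of phosphoinositide 3-kinase, 3751 in the control, and MAP2K1 3347. BCL2, another survival protein, gave 34.3 untreated, 62.9 after 12 h and 75.9 after 24 h and was the 1 member at the floor on the control, crossing it on both treated arrays. Chosen after their values were seen, the cyclin and kinase genes that p16 restrains were intermediate, CCND1 with 2539, CDK4 with 3107 and CDK6 with 3003.

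The untreated order carried over to the other 2 arrays. Of the 989 bright genes 882 (89.2%) were bright on both, and none differed from the control by 2-fold or more at 12 h or at 24 h, where 0.883% and 1.23% of 12351 genes above the floor on at least 1 array did so either way. This count has no test. The highest signals on the control, 12 h and 24 h arrays were 33664, 33362 and 34145, so the brightest genes had little room to rise 2-fold. Spread also differed by class, with a median absolute log2 difference at 12 h of 0.094 among bright and 0.22 among dim genes. The absence of 2-fold differences therefore does not show that bright genes were steadier than others. Bright on a treated array means among the top 5% of genes there. At the floor 93.7% of genes stayed there on both treated arrays, and 90.9% of dim genes stayed above it on both. Of the 1316 genes between 1 and 2 times the floor on the control, 800 (60.8%) were above it on both. These genes were chosen for lying near the floor, so a lower share than among all dim genes follows from that choice. The treated arrays are not repeats of the control, so noise and treatment cannot be told apart in these shares. Spearman correlations across the 11849 genes above the floor were 0.989 with the 12 h array and 0.986 with the 24 h array, as a description over genes, which are not independent replicates, of arrays with a common scaling.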

How the data were processed

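Total RNA of NCI-H1650 was read on 3 Affymetrix arrays with 54675 probe sets each, 1 array a group. The authors deposited signal intensity on a linear scale, from MAS5 per the submitters' processing notes, whose version and settings are not given in the sources used here. With 2% trimmed at each end, the arrays had a common mean of 500, and they were used without more scaling. Median intensity was 61.7 untreated, 60.6 after 12 h and 61.8 after 24 h. Ratios of 3' to 5' probes were 4.95, 5.38 and 6.55 for ACTB and 1.21, 1.25 and 1.24 for GAPDH, in that order.

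The platform annotation named 1 gene for 41097 probe sets, several for 1801 and none for 11777. Of those with 1 gene, 41043 matched a current gene record. A gene took its single-gene probe set with the highest mean over the 3 arrays. Counts, ranks and classes were computed with pandas 2.3.3. The class code was run on a noise-added copy of the values, with some genes set far under the floor and others far above the bright limit. That check does not cover calls near a limit. With 1 array a group no p-value was computed. Promoters and gene order came from RefSeq tables of GRCh38.p14.

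Genes were chosen from 28 lists holding 588 genes, 529 of them on the array. Named are the 6 line markers, the 10 brightest genes, the 15 brightest outside ribosomal proteins and elongation factors, the 4 brightest members of every list above the floor on the control, at most 4 of its members at the floor on all 3 arrays with the most probe sets, and members of a list where 5 or fewer were counted. A group of receptors, cell cycle inhibitors and regulators was named whatever the value, with the neighbours of CDKN2A, and 1 gene of that group and its neighbours are not reported here. Members and lists were chosen with earlier results of these data known. Other names were chosen after their values were seen, as the text says. The alternatives changed the probe set of a gene, the floor, the scaling between arrays and the limit of the bright class.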

Additional observations from a re-analysis of the deposited data

How the results depend on the processing

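Of 43 comparisons of a count or share with an alternative, over 9 results and 9 settings, 40 kept their value within 1.5 times, or a share within its exact 95% interval, and 3 moved. With transcript-specific probe sets only, 3 of the 6 line markers were above the floor in place of 5, because NQO1 and EPCAM have no such probe set. The share of CpG-rich promoters at the floor was 42.2% with the median over a gene's probe sets and 44.0% with the floor at the 65th percentile, against 37.4%. Counts of single lists moved in 38 of 174 comparisons. Among the shortest lists the mucous genes above the floor ranged from 1 to 9, the club cell genes from 0 to 3 and the fibroblast and endothelial markers from 2 to 12, depending on the floor or the probe set. Of 223 named genes 13 fell to the floor with the median over probe sets and 12 with the floor at the 65th percentile, and of 174 with a transcript-specific probe set 10 did. With the floor at the 25th percentile 64 more were above it. No paired analysis was possible because each group held 1 array, which also left no replicate to leave out.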

Other observations

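Genes that interferons induce and genes of antigen presentation were high in the untreated cells. This list was drawn up after the values were seen and has no test. Of the 56 genes on it 48 were above the floor and 12 bright, against 59.9% and 5% of all genes. The list also holds the interferon genes IFNB1, IFNL1, IFNL2 and IFNG, and all of these but IFNG are among the 48. IFI6 gave 12941 untreated, 13725 after 12 h and 14103 after 24 h. IFIT1, which binds foreign RNA, gave 11452 untreated, 13385 after 12 h and 12660.4 after 24 h. MX1, an antiviral GTPase, gave 10963 untreated, 12799.9 after 12 h and 14049 after 24 h. ISG15, a ubiquitin-like modifier, gave 8343 untreated, 9508 after 12 h and 9358 after 24 h. All 4 were bright on every array, and each was lowest on the control. IFI27 (10529), IFIT3 (9854), IFITM3 (9033), IFIT2 (8926) and HERC5 (7973) were bright on the control as well, with B2M, HLA-C (15883) and HLA-B (11330.4), which present peptides to T cells.

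The interferons themselves were low. None of 11 interferon alpha genes was above the floor on any of the 3 arrays. IFNB1 gave 72.4 untreated, 67.7 after 12 h and 69 after 24 h. IFNL1 gave 190.1 untreated, 225 after 12 h and 172 after 24 h. IFNL2 gave 85.3 untreated, 94.3 after 12 h and 113 after 24 h, and all 3 were dim. IFNG was at the floor with 2.4 in the control. Other members of the list were at the floor too, with MX2 at 48, IRF7 at 55.4, the chemokines CXCL10 at 38.7 and CXCL11 at 20.3, and the class II antigen genes HLA-DRA at 30.4, HLA-DPA1 at 51 and CD74 at 18. What sets these levels was not tested.

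Other families grouped by symbol after the values were seen gave further values. Of 28 HOX genes 16 were above the floor, led by HOXB3 (1534) and HOXB2 (884). Of 21 S100 genes 14 were above it and 4 bright, S100A6 (24953), S100A10 (23923), S100A11 (16144) and S100A9 (8572), the last a protein better known from neutrophils. Of 11 annexins 9 were above the floor and 6 bright, led by ANXA2 (21153) and ANXA1 (19433). Of 85 potassium channel genes 19 were above the floor and none bright, KCNK1 coming first with 5027. Of 57 RAB genes 50 were above it, with RAB1A at 21360.4.

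Probe sets without a gene name carried signal as well. Of 11777 such probe sets 3900 (33.1%) were above the floor on the control, against 54.4% of those with 1 gene.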
